A study of Cricetiscus sungorus with 24 samples.

Results

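Complex I of the respiratory chain was described here through its nuclear genes in the kidney of the Siberian (Djungarian) hamster. The members were all genes whose symbol starts with Nduf, each taken as the listed transcript with most reads. There were 53 such genes among 15960 genes in either experiment, 49 of 9681 genes in experiment 1 and 53 of 15842 in experiment 2. They were split into 7 core subunits, 30 accessory subunits, 8 Ndufaf assembly factors, and 8 copies, pseudogenes and relatives. Hamster reads were aligned to mouse sequence, so a gene name stands for reads counted on that mouse gene.

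Complex I takes electrons from NADH, passes them along iron-sulphur clusters to ubiquinone and pumps protons across the inner mitochondrial membrane. Its core subunits carry out this chemistry, and its accessory subunits surround and stabilise the core. The Ndufaf proteins help to build the complex and are not part of the finished enzyme. The tubules of the kidney use much ATP for salt transport and are rich in mitochondria. The core subunits encoded by mitochondrial DNA were not analysed here.

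Experiment 1 held 12 male hamsters, 4 kept in a long photoperiod (LP, 16 h of light and 8 h of dark), 4 moved to a short photoperiod (SP, 8 h of light) for 12 weeks (SP12wk) and 4 for 28 weeks (SP28wk). Experiment 2 held 12 female hamsters, all in SP for 8 weeks, of which 6 were injected with vehicle (SAL) and 6 with 18 µg of prolactin (PRL) on each of 3 days. All animals were adult, and the labels name no allele. The 2 experiments differ in sex, flow cell and table, so that their levels are set side by side without a test.

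Depth set the precision. With 1 transcript per gene, libraries held 15688 to 57585 reads in experiment 1 and 174053 to 756523 in experiment 2, so that 1 read was worth 17.4 to 63.7 and 1.32 to 5.75 CPM (reads of the gene per 1e6 reads of the library). A member without a read could have had up to 3 reads, or 52.1 to 191 CPM in a library of experiment 1. These limits cover counting error only. The 11 measured markers of the proximal tubule summed to 1626 to 3385 CPM in experiment 1 and 1985 to 5449 CPM in experiment 2, whereas the 6 adrenal markers had no read in experiment 1 and at most 17.2 CPM in experiment 2. Levels here are shares of reads and are not scaled to transcript length, so the order of genes by CPM is an order of reads.

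LP replicate 2 stood apart from the other libraries of experiment 1. Its 36 measured subunit genes summed to 7067 CPM, against 14261 to 29389 CPM in the other 11. Ndufa1, Ndufb9, Ndufa11, Ndufa7 and Ndufb3 were the members of highest mean CPM with no read there. Further members of lower mean CPM, Ndufb8 among them, had none there either. In contrast, Ndufab1 (1066 CPM), Ndufb2 (841 CPM) and Ndufa8 (785 CPM) were higher there than in any other library. The summed genes of complexes III (1178 CPM), IV (6955 CPM) and V (12563 CPM) and the ribosomal protein genes (103871 CPM) were also lowest in this library. LP replicate 3 had the next lowest subunit sum (14261 CPM). Reads over all transcripts were 3.31 and 2.90 times those with 1 transcript per gene in LP replicates 2 and 3. That ratio was 2.15 to 2.45 in the other libraries of experiment 1. Comparisons with LP are therefore given with all libraries and without LP replicates 2 and 3. The part of library composition in these comparisons was not tested. In such bulk samples fewer mitochondria-rich cells and less RNA per cell cannot be told apart.

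Accessory subunits supplied most complex I reads in every group, core subunits about an order of magnitude fewer, and assembly factors very few. In SAL, the core genes summed to 3100 ± 367 CPM (SD, n = 6), the accessory genes to 32232 ± 3019 CPM and the Ndufaf genes to 183 ± 26.6 CPM. In PRL the sums were 3034 ± 496, 30314 ± 3137 and 180 ± 24.9 CPM (n = 6). The ranges of the 2 groups overlapped in all 3 classes. Core genes gave 7.10% to 10.9% of subunit reads and Ndufaf genes 0.361% to 0.595% of the family's reads across the 12 libraries of experiment 2.

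In experiment 1, the core sum was 1317, 505, 1110 and 1476 CPM in LP replicates 1 to 4, 899, 956, 2711 and 2374 CPM in SP12wk, and 1107, 1535, 1657 and 1702 CPM in SP28wk. SP12wk thus held both low and high libraries, and the 3 groups overlapped. The accessory sum was 22343, 6562, 13151 and 17207 CPM in LP, 22277, 24478, 23793 and 27015 CPM in SP12wk, whereas SP28wk lay between 19368 and 22055 CPM. On this scale all SP12wk libraries were above all SP28wk libraries, and LP reached from below both into SP12wk. With library sizes scaled by edgeR's TMM factors, which the tests used, the accessory sum ranged over 21530 to 30110 CPM in SP12wk, against 21418 to 25435 CPM in SP28wk, so that these groups overlapped. Without LP replicate 2 the LP means were 17567 CPM for accessory and 1301 CPM for core genes, against 14816 and 1102 CPM with it. The Ndufaf sums rested on 8 (LP), 9 (SP12wk) and 15 reads (SP28wk), too few to compare.

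**Figure D1:**
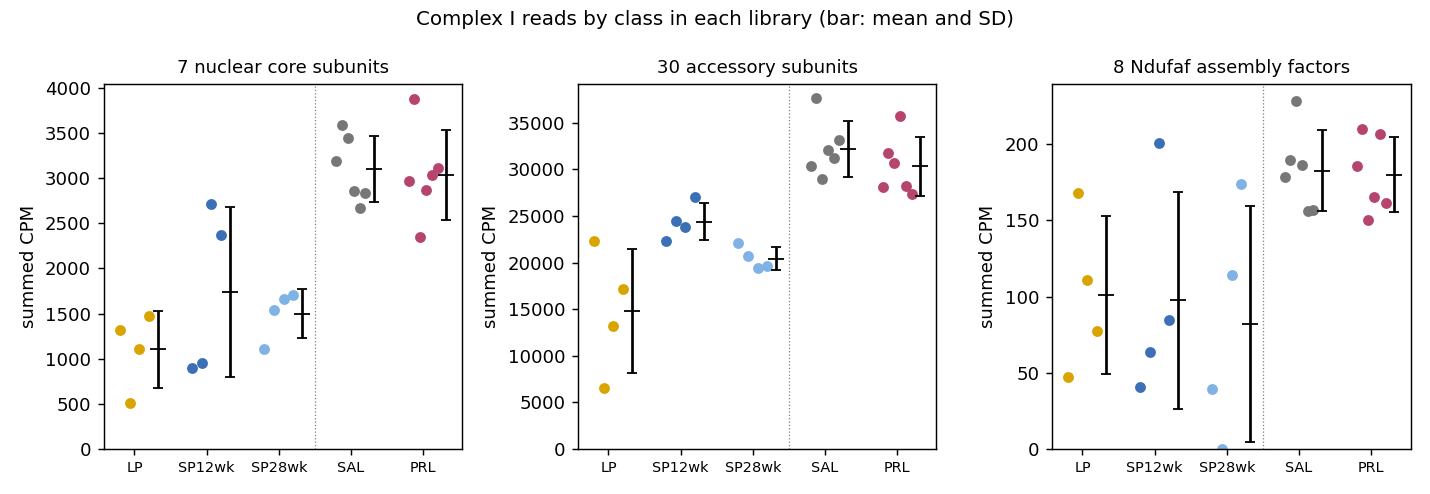
Summed CPM of core subunits, accessory subunits and Ndufaf assembly factors (vertical axes, each from 0) in each library of LP, SP12wk, SP28wk (4 each), SAL and PRL (6 each); points are libraries, bars the mean and SD, and the dotted line separates the experiments. LP spreads from 6562 to 22343 CPM for accessory genes, and SAL and PRL overlap in each panel.

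The core subunits fell into a higher and a lower set in experiment 2. Ndufs8, which holds iron-sulphur clusters, had 649 to 872 CPM in SAL (median 808) and 538 to 1040 CPM in PRL (median 681). Ndufv2, an iron-sulphur subunit of the NADH-binding tip, had 643 to 921 CPM (median 698) and 596 to 796 CPM (median 677). Ndufs7, which holds the last cluster before ubiquinone, had 520 to 775 CPM (median 662) and 542 to 780 CPM (median 663). The groups overlapped for each of these genes. Ndufs3, a subunit of the ubiquinone-reducing part, had 442 to 598 CPM in SAL (median 507) and 316 to 707 CPM in PRL (median 563).

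Ndufv1 and Ndufs1 lay in the lower set. Ndufv1, which binds NADH and flavin, had 122 to 206 CPM in SAL (median 153) and 98.8 to 225 CPM in PRL (median 161). Ndufs1, the largest iron-sulphur subunit, had 28.8 to 63.9 CPM (median 50.4) and 27.7 to 74.7 CPM (median 55.1). Neither range reached those of the higher set. Ndufv1 and Ndufs1 had the fewest reads of the core genes in experiment 1 too, 19 and 6 over 12 libraries.

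Of the 10 members with most reads in experiment 2, 8 were accessory subunits. Ndufa4, first described with complex I and now assigned to cytochrome c oxidase, led with 5777 to 6545 CPM in SAL (median 6031) and 4799 to 7086 CPM in PRL (median 5311), or 12.8% to 17.3% of the family's reads. Ndufa6, which binds the mitochondrial acyl carrier protein, had 2553 to 4539 CPM in SAL (median 3433) and 2042 to 5164 CPM in PRL (median 2709). It was the most variable of these 10 in PRL, with an SD of 1229 CPM. Ndufa13, also known as GRIM-19, had medians of 2516 and 2233 CPM in SAL and PRL. Ndufa11, in the membrane arm, had medians of 2126 and 1923 CPM, and Ndufa1, a small membrane-arm subunit, 1970 and 1792 CPM. Ndufa5, in the peripheral arm, had medians of 1963 and 1769 CPM. For all of these the groups overlapped.

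Ndufc1, Ndufb9 and Ndufb6, all of the membrane arm, had medians of 1765, 1609 and 1654 CPM in SAL and 1742, 1653 and 1538 CPM in PRL. Ndufb4c, the last of the 10, could not be told from its relatives. Its reads were those of Ndufb4 in 9 of 12 libraries of experiment 2, with a difference of at most 1 read, and Ndufb4b matched Ndufb4 in 11 of 12. Reads of these 3 names therefore stand for 1 set of reads, although they count as 3 members in the counts of members that follow. Ndufs6b and Ndufab1-ps, copies of Ndufs6 and Ndufab1, had reads of their own (839 against 4880, and 425 against 3387, in experiment 2), and how reads were divided between copies is uncertain.

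**Figure D2:**
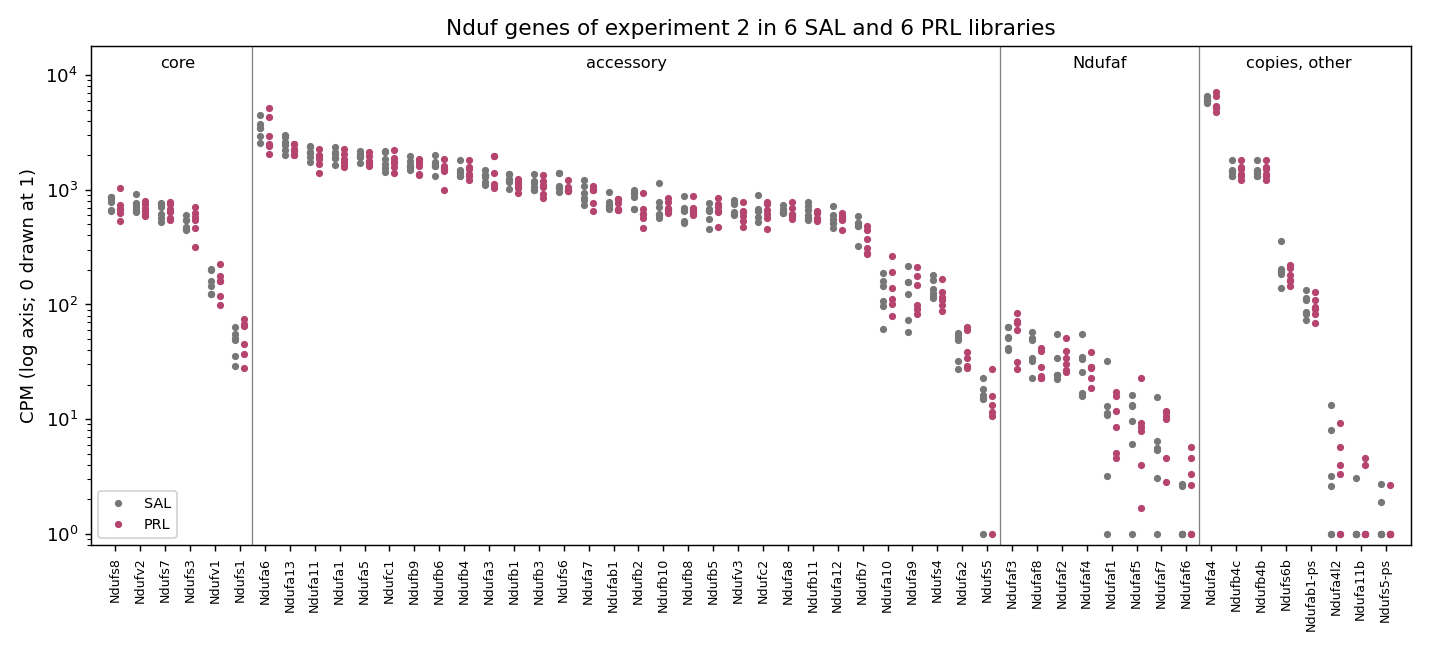
CPM (log axis, 0 drawn at 1) of the Nduf genes of experiment 2 in each of 6 SAL (grey) and 6 PRL (red) libraries, grouped by class and ordered by mean CPM. Accessory subunits fill the upper range, Ndufaf genes lie at or below 84.6 CPM, and the 2 groups overlap for each gene shown.

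The Ndufaf genes had few reads, and 4 of them had reads in all 12 libraries of experiment 2. Ndufaf3, which binds early ubiquinone-module intermediates together with Ndufaf4, had most reads of them, 39.8 to 63.9 CPM in SAL (median 51.7) and 27.6 to 84.6 CPM in PRL (median 64.3). Ndufaf8, the partner of Ndufaf5, had 22.8 to 57.6 CPM in SAL (median 41.4) and 22.7 to 41.4 CPM in PRL (median 26.1). Ndufaf2, a relative of Ndufa12 that acts late in assembly, had 22.4 to 54.8 CPM (median 24.5) and 25.5 to 50.6 CPM (median 32.4). Ndufaf4 had medians of 29.8 and 28.0 CPM in SAL and PRL. The groups overlapped for all 4.

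The other 4 had 48 reads or fewer over the 12 libraries. Ndufaf1, which acts in building the membrane arm, had 0 to 32.0 CPM in SAL and 4.60 to 17.2 CPM in PRL. Ndufaf5, which modifies Ndufs7, had 0 to 16.2 CPM in SAL (median 11.3) and 1.67 to 23.0 CPM in PRL (median 8.22). Ndufaf7, a methyltransferase, had 0 to 15.6 CPM in SAL (median 5.52) and 2.84 to 11.9 CPM in PRL (median 10.3). Ndufaf6 had 9 reads in all, 2 in SAL and 7 in PRL. In experiment 1, Ndufaf3 had 18 reads over 12 libraries, Ndufaf2 5, Ndufaf5 3, Ndufaf6 and Ndufaf8 2 each, and Ndufaf4 and Ndufaf7 1 each. Ndufaf1 was not analysed there, and neither was the accessory gene Ndufs5.

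No complex I gene differed after prolactin at an adjusted p under 0.05. In the quasi-likelihood test of edgeR, with p adjusted by Benjamini-Hochberg over 10696 genes, 0 of 51 members tested were called, and 0% of all genes. At an unadjusted p under 0.05, 2 members were lower and 0 higher in PRL, against 4.88% of all genes in either direction. DESeq2 and limma-voom also called 0 members, with 2 at an unadjusted p under 0.05 in each, and sums over transcripts gave 1 at that level. With each library left out the number in edgeR was 0 to 3, and 0 without PRL replicate 5. Of the 51 members, 40 had a log2 fold change below 0 (38 of 49 without Ndufb4b and Ndufb4c), against 47.4% of all genes. No member had groups that did not overlap, against 0.14% of all genes.

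By class, the median log2 fold change of PRL against SAL was -0.03 for the 7 core genes, -0.16 for the 30 accessory genes and 0.01 for the 8 Ndufaf genes, beside 0.03 for all genes tested. Of the accessory genes 25 were below 0, of the core genes 5 and of the Ndufaf genes 4. The median of complex III genes was -0.15, of complex IV genes -0.10, of complex V genes -0.13 and of ribosomal protein genes -0.10. The medians of these lists had the sign of the accessory subunits. Other genes of mitochondrial content had a median of 0.12 (7 of 10 above 0) and proximal tubule markers of 0.10 (8 of 11 above 0), while that of blood markers was -0.13 (2 of 5 above 0). Differences between lists were not tested. The standard error of the members' log2 fold changes had a median of 0.19.

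Ndufb2, a small membrane-arm subunit, had the smallest p. It had 678 to 1007 CPM in SAL (median 902) and 465 to 943 CPM in PRL (median 613). All PRL libraries but replicate 4 lay at or below 680.1 CPM, and the groups overlapped. The log2 fold change was -0.47 ± 0.19 (SE), with an adjusted p of 0.839 in edgeR and an unadjusted two-sided exact permutation p of 0.0411. Ndufb7, a membrane-arm subunit on the intermembrane side, had 325 to 587 CPM in SAL (median 500) and 277 to 488 CPM in PRL (median 342). Its log2 fold change was -0.46 ± 0.21, with an adjusted p of 0.996 in edgeR and an unadjusted exact permutation p of 0.0390. Both were among 6 genes chosen for their small p.

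Among the members that were higher in PRL, Ndufaf6 had a log2 fold change of 1.35 ± 0.91, Ndufaf7 of 0.38 ± 0.54 and Ndufa10, an accessory subunit of the membrane arm, of 0.16 ± 0.25. Their adjusted p was 0.999 in edgeR, and their unadjusted exact permutation p was 0.132, 0.353 and 0.552. Ndufaf8 had -0.50 ± 0.30 (adjusted p = 0.999 in edgeR, unadjusted exact permutation p = 0.106). For the core subunits the intervals of the log2 fold change (95%, from the SE) reached from -0.55 to 0.21 for Ndufs8 and from -0.36 to 0.69 for Ndufs1. Differences of that size were not detectable.

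**Figure D3:**
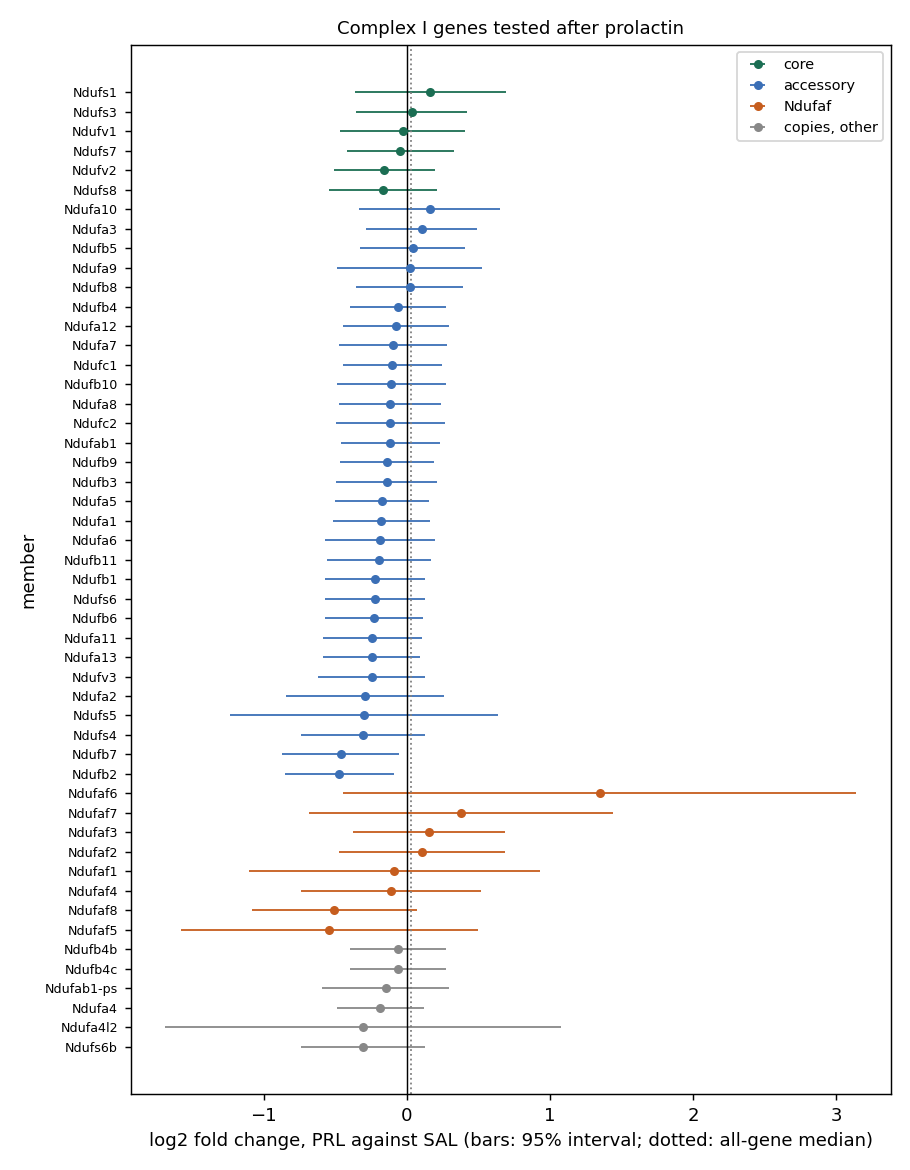
Log2 fold change of PRL against SAL (horizontal axis) for members tested, with bars of the 95% interval and colours by class; the dotted line is the median of all genes tested (0.03). Only the bars of Ndufb2 and Ndufb7 leave 0, both on the lower side, and neither passed the adjusted test.

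After 12 weeks of SP most complex I genes had a fold change above 0 against LP, and none passed the adjusted test. In edgeR's quasi-likelihood test, 0 of 41 members tested were called, beside 0.0197% of 5086 genes. At an unadjusted p under 0.05, 13 members were higher and 0 lower, against 4.56% and 2.69% of all genes. One of the 13, Ndufa9, had no read in LP and entered the test only through SP libraries. Among genes with a read in both groups, 12 of 40 members were higher, against 2.73% of 4572 genes. With each library left out the number was 5 (without LP replicate 3 or SP12wk replicate 4) to 21 (without LP replicate 1). DESeq2 had 7 members, limma-voom 21 and sums over transcripts 2 at that level, and each called 0. Of the 41 members, 38 had a log2 fold change above 0 (36 of 39 without Ndufb4b and Ndufb4c), against 47.3% of all genes. Without LP replicate 2, 6 members had an unadjusted p under 0.05 and the median log2 fold change fell from 0.78 to 0.52, and without LP replicates 2 and 3 there were 0 members and a median of 0.31.

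The median log2 fold change was 0.70 for the 7 core genes (5 above 0) and 0.89 for the 28 accessory genes tested (27 above 0). Of the 8 Ndufaf genes only Ndufaf3 was tested, at 0.67 ± 1.13. Complexes III, IV and V had medians of 0.36, 0.64 and 0.63, and ribosomal protein genes 0.21, beside -0.00127 for all genes. The median for the membrane arm was 0.94 and for the peripheral arm 0.73. The genes of mitochondrial content had a median of -0.21 (7 of 10 below 0), and those of mitochondrial biogenesis -0.43 over 4 tested.

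The genes of mitochondrial content summed to 1411 to 3702 CPM in LP, highest in LP replicate 2. SP12wk had 956 to 1757 CPM of them, whereas SP28wk had 1535 to 2171 CPM. Their sum ran against the accessory sum (r = -0.870 over 12 libraries, -0.702 without LP replicate 2). Blood markers, like most complex I genes, were above 0 against LP. Their median was 0.60 in SP12wk and 0.59 in SP28wk, with 4 of 4 tested above 0 in each, all of them globin genes. Of the 7 blood markers 5 were listed, 4 globin genes with reads in every library and Alas2 with reads in 1. They summed to 14205 to 28899 CPM in LP, whereas SP12wk spread from 17519 to 44112 CPM and SP28wk from 20995 to 33240 CPM, and the groups overlapped. The blood sum went with the accessory sum (r = 0.588, and 0.662 without LP replicate 2). It did not go with the core sum (r = 0.0749, and -0.0360 without LP replicate 2). It ran against the Ndufaf sum (r = -0.559, and -0.526 without LP replicate 2), which rested on few reads. Proximal tubule markers had medians of 0.22 in SP12wk and 0.97 in SP28wk against LP, 8 of 9 tested above 0 in each. Their sum had r = 0.191 with the accessory sum, and -0.582 without LP replicate 2. Loop and distal tubule markers had medians of 0.10 and -0.77, over 3 tested. These r are descriptions over libraries of 1 flow cell. The part of blood or tubule cells in the comparisons with LP was not tested.

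Among members, Ndufb3 and Ndufs6 had groups that did not overlap, with SP12wk higher, against 1.12% of all genes with that direction. Ndufb3, a membrane-arm subunit, had 282, 0, 277 and 505 CPM in LP and 572, 701, 703 and 989 CPM in SP12wk. Its log2 fold change was 1.55 ± 0.52, with an adjusted p of 0.577 in edgeR and an unadjusted exact permutation p of 0.0286, the smallest that 4 against 4 allows. Ndufs6, which binds zinc in the peripheral arm, had 894, 56.1, 333 and 466 CPM in LP and 940, 1084, 1054 and 1300 CPM in SP12wk. Its log2 fold change was 1.39 ± 0.49 (edgeR adjusted p = 0.577, exact permutation p = 0.0286). LP replicate 2 was the lowest library for both genes, and without it the changes were 1.14 and 1.05. Without LP replicates 2 and 3 they were 0.91 and 0.72.

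Ndufa7, in the peripheral arm, had 706, 0, 55.5 and 350 CPM in LP and 654, 637, 853 and 763 CPM in SP12wk. LP replicate 1 lay within SP12wk. The log2 fold change was 1.40 ± 0.52 (edgeR adjusted p = 0.577, unadjusted exact permutation p = 0.0857). Without LP replicates 2 and 3 it was 0.49. On the other side, Ndufs1 (-0.86 ± 1.12) and Ndufb2 (-0.02 ± 0.52) were below 0, with adjusted p of 0.911 or more in edgeR. Their unadjusted exact permutation p was 0.429 and 0.857. Ndufs1 had 4 reads in LP and 2 in SP12wk.

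Between 12 and 28 weeks of SP complex I genes moved in both directions and none passed the adjusted test. Of 41 members 0 were called in edgeR's quasi-likelihood test, beside 0.138% of all genes, and 1 had an unadjusted p under 0.05, against 6.1% of all genes. DESeq2 had 1 member and limma-voom 2 at that level. With each library left out the number was 1 to 3, and 3 without LP replicate 2. The median log2 fold change of SP28wk against SP12wk was -0.05 over the members, 0.02 for core and -0.07 for accessory genes, while that of all genes was 0.16. The 41 members were 19 above and 22 below 0, and 58.2% of all genes were above. With total-count scaling the median of all genes was 0.00833 and that of the members -0.22, so that the members' median lay below that of all genes under both scalings.

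Ndufa3, a small membrane-arm subunit, had 2943, 3761, 2861 and 3391 CPM in SP12wk and 2371, 1867, 1228 and 1250 CPM in SP28wk. Every SP28wk library was below every SP12wk library, as for 1.53% of all genes. In LP it had 3481, 337, 1554 and 1282 CPM, so that LP replicate 1 lay within SP12wk. The log2 fold change of SP28wk against SP12wk was -0.81 ± 0.45 (edgeR adjusted p = 0.902, unadjusted exact permutation p = 0.0286). Ndufa1 and Ndufs6 were the other members with all SP28wk libraries lower.

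Ndufb2 was the one member with all SP28wk libraries above SP12wk, as for 1.85% of all genes. It had 490, 446, 452 and 198 CPM in SP12wk and 514, 539, 714 and 504 CPM in SP28wk. The log2 fold change was 0.73 ± 0.50 (edgeR adjusted p = 0.977, exact permutation p = 0.0286). Ndufv2 had 81.7, 255, 452 and 254 CPM in SP12wk and 158, 498, 486 and 382 CPM in SP28wk, with a log2 fold change of 0.75 ± 0.53 and an adjusted p of 0.977 in edgeR. Ndufs8 had 286, 319, 853 and 819 CPM in SP12wk and 79.0, 290, 314 and 399 CPM in SP28wk. Its log2 fold change was -0.85 ± 0.50 (edgeR adjusted p = 0.909). The groups overlapped for Ndufv2 and Ndufs8, with an unadjusted exact permutation p of 0.314 and 0.2.

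After 28 weeks of SP 1 complex I gene, Ndufb7, was higher than in LP. It had 47.0, 112, 0 and 117 CPM in LP (6 reads in all), 40.9, 63.7, 452 and 170 CPM in SP12wk (17 reads) and 158, 539, 657 and 903 CPM in SP28wk (92 reads). Every SP28wk library was above every LP library, but the nearest were SP28wk replicate 1 with 4 reads and LP replicate 4 with 3 reads. The 0 reads of LP replicate 3 allow up to 166 CPM, above the 158 CPM of SP28wk replicate 1. SP12wk replicates 3 and 4 lay within the range of SP28wk, and SP12wk replicates 1 and 2 within that of LP. The log2 fold change of SP28wk against LP was 3.32 ± 0.63 (edgeR adjusted p = 2.00e-04, unadjusted exact permutation p = 0.0286). Without LP replicate 2 it was 3.41 (adjusted p = 5.41e-04 in edgeR), and without LP replicates 2 and 3 it was 2.87 and no longer called (adjusted p = 0.0830 in edgeR).

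The call of Ndufb7 was also lost with DESeq2 (log2 fold change 3.17, adjusted p = 0.223) and with reads added over all transcripts of a gene (3.19, adjusted p = 0.654 in edgeR). Ndufb7 had 1 transcript listed, so its own reads were the same with these sums, under which 0 of 5222 genes were called. Against SP12wk the change was 1.87 ± 0.54 (edgeR adjusted p = 0.249, unadjusted exact permutation p = 0.0857). Ndufb7 was 1 of 11 genes called, or 0.216% of 5086, all higher in SP28wk. Another of the 11, Chchd2, which codes for a mitochondrial protein and was chosen after its values were seen, had 1, 0, 0 and 10 reads in LP, 0, 0, 35 and 37 in SP12wk and 10, 28, 46 and 46 in SP28wk. Of the 11 called genes, 6 had a higher CPM in SP12wk replicates 3 and 4 than in replicates 1 and 2, and 5 did not. Ndufb7 and Chchd2 were among the 6, and the share of all genes with this split was not counted. The 11 were not all separate, since Rpl41 and Gm31458 had nearly the same reads (136 and 134 in SP28wk replicate 3). Reads of Chchd2 and Zbed5 also ran alike (35 and 30 in SP12wk replicate 3). The part of library composition in these calls was not tested. In experiment 2 Ndufb7 had 277 to 587 CPM over both groups.

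**Figure D4:**
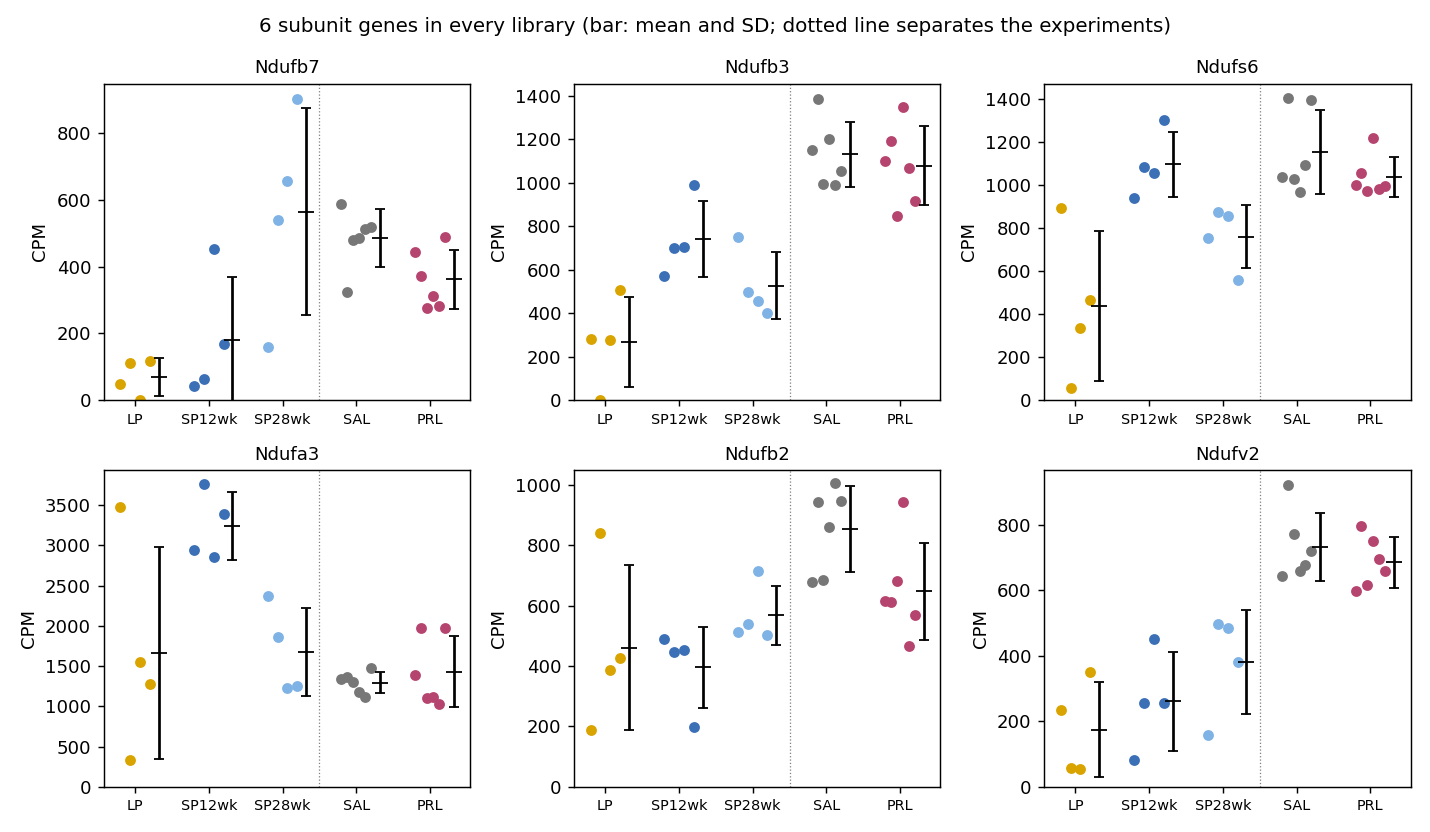
CPM (vertical axes, from 0) of Ndufb7, Ndufb3, Ndufs6, Ndufa3, Ndufb2 and Ndufv2 in each library of the 5 groups; points are libraries, bars the mean and SD, and the dotted line separates the experiments. Ndufb7 in SP28wk ranges from 158 to 903 CPM and in LP from 0 to 117 CPM, while the SP12wk libraries of Ndufa3 lie above those of SP28wk.

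The other members gave no call in SP28wk against LP. At an unadjusted p under 0.05, 11 members were higher, Ndufb7 among them, against 6.61% of all genes. Ndufs1 was the only one lower (1.97% of all genes), and it entered the test only through LP and SP12wk libraries, since SP28wk had no read of it. Among genes with a read in both groups, 11 of 39 members were higher, against 4.14% of 4710 genes. With each library left out the number in either direction was 5 (without LP replicate 3) to 18 (without LP replicate 1). DESeq2 had 5 members, limma-voom 20, total-count scaling 6 and sums over transcripts 3 at that level. Of the 41 members 40 were above 0 (38 of 39 without Ndufb4b and Ndufb4c), against 58.5% of all genes, with medians of 0.57 for core and 0.81 for accessory genes beside 0.18 for all genes. With total-count scaling the medians were 0.37 for the members and -0.16 for all genes. Without LP replicate 2 the median over the members fell from 0.71 to 0.37, and without LP replicates 2 and 3 to 0.16 beside 0.14 for all genes. Complexes III, IV and V had medians of 0.40, 0.43 and 0.46, and ribosomal protein genes 0.57.

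Ndufb9, which like Ndufa6 binds acyl carrier protein, had 329, 0, 666 and 544 CPM in LP and 474, 954, 1143 and 920 CPM in SP28wk, with a log2 fold change of 1.48 ± 0.49 (edgeR adjusted p = 0.279). Ndufb8, of the membrane arm, had 94.1, 0, 55.5 and 350 CPM in LP and 79.0, 415, 571 and 382 CPM in SP28wk, and its change was 1.70 ± 0.59 (edgeR adjusted p = 0.323). For both, SP28wk replicate 1 lay within the LP range. Without LP replicate 4, Ndufb8 was called (3.14, adjusted p = 0.0105 in edgeR). Ndufs3 (1.79 ± 0.65) and Ndufb6 (1.28 ± 0.46) were the other members with all SP28wk libraries above LP, as for 1.57% of all genes. Ndufs1 had 4 reads in LP and 0 in SP28wk, where 0 reads allow up to 21.1 CPM over the group, so no fold is given.

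Across the libraries of experiment 1, much of the joint variation of complex I genes came with LP replicate 2. Over 435 pairs of 30 members with a median of at least 5 reads, the median Pearson r of log2(CPM + 41.2) was 0.592 with 12 libraries and 0.227 with 11, without LP replicate 2. These correlations are descriptions over libraries that share 1 flow cell and differ in depth. Without that library, the pairs most alike were Ndufa3 with Ndufv3 (r = 0.886) and Ndufb10 with Ndufb6 (r = 0.878). Ndufa12 was also like Ndufb8 (r = 0.797) and Ndufv2 (r = 0.783), while Ndufv2 was most like Ndufb6 (r = 0.809). Ndufa3 and Ndufb2 went opposite ways (r = -0.569).

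**Figure D5:**
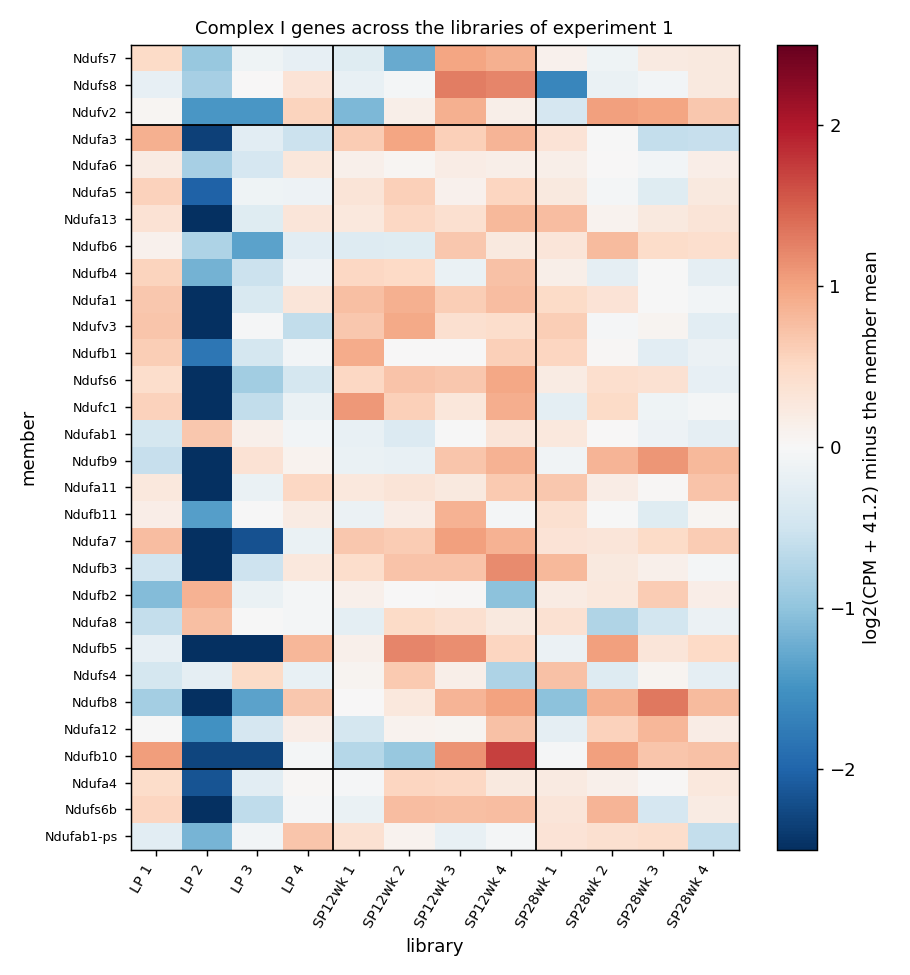
Log2(CPM + 41.2) of each member minus its mean over the 12 libraries of experiment 1 (colour scale), for members with a median of at least 5 reads, Ndufb4b and Ndufb4c left out as copies; values past the ends of the scale take its end colours, rows are ordered by class (core, accessory, other) and mean CPM, and vertical lines separate LP, SP12wk and SP28wk. LP replicate 2 is the lowest column for most members, and the highest for Ndufab1, Ndufb2 and Ndufa8.

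In experiment 2 the median r was 0.202 over 946 pairs of 44 members in 12 libraries. Ndufa10 was most like Ndufa9 (r = 0.899), which shared low read counts, and Ndufa1 was most like Ndufc1 (r = 0.865), which shared high ones. The sums of the peripheral and the membrane arm went together (r = 0.943), whereas the sums of core and accessory genes did not (r = 0.137). The accessory sum went with complexes III (r = 0.868), IV (r = 0.883) and V (r = 0.872). The Ndufaf sum went with the core sum (r = 0.739), with complex II (r = 0.846) and with the genes of mitochondrial content (r = 0.788). It also went with the proximal tubule markers (r = 0.876) and with the loop and distal tubule markers (r = 0.839). It did not go with the accessory sum (r = -0.173) and ran against the ribosomal protein genes (r = -0.566). The core sum also went with the proximal tubule markers (r = 0.713) and complex II (r = 0.691), and against the ribosomal protein genes (r = -0.591). With the loop and distal tubule markers it had r = 0.500, and with the genes of mitochondrial content r = 0.331. Each of these r is a description over 12 libraries of 1 flow cell.

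Of 13 assembly factors with other names, 11 were listed and 8 tested in experiment 2, and 8 listed and 1 tested in experiment 1, with 0 called in edgeR in each comparison. They summed to 76.8 to 224 CPM in experiment 2. None of the genes of complexes II to V or of the lists of mitochondrial content and biogenesis was called in any of the 4 comparisons.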

How the data were processed

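Kidney RNA of 24 hamsters was sequenced as nanopore cDNA, 12 libraries per flow cell. The methods name a direct cDNA kit and the labels a PCR-cDNA kit with the same catalogue numbers. The authors basecalled with Guppy, trimmed with Porechop, filtered with Filtlong and aligned with Minimap2 to the mouse genome. The deposited values are estimated counts per mouse RefSeq transcript without normalization, of which 2868 in experiment 1 and 3447 in experiment 2 were not whole. The labels' processing notes name minimap2 and Salmon, with no role for Salmon.

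For each gene the transcript with the highest total was taken, rounded, and tested with edgeR 4.0.16 (R 4.3.3, quasi-likelihood, TMM, 1 fit per experiment, no covariate). A gene was kept with a read in 4 or more of the 12 libraries of experiment 1, or 6 or more in experiment 2. P-values were adjusted by Benjamini-Hochberg over all genes tested, with a threshold of 0.05. The SE is the size of the log2 fold change over the square root of F, and 95% intervals are normal approximations from it. CPM divides by the total over these transcripts. Mean CPM was compared for single genes with two-sided exact permutation tests, not adjusted. Fits were tested on simulated data with log2 changes of 2 and 3 in single genes. Of these, 13.8% and 39.6% were called in SP12wk against LP, and 62.5% and 80.2% in PRL against SAL. For genes with at least 10 reads on average it was 100% and 100%, and 91.4% and 100%. The simulated variation between libraries was smaller than that estimated in experiment 1. Replicates are separate animals by the design, and no library was a copy of another.

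Members and lists were chosen with earlier results of these data known, the class of copies and the ribosomal protein list after the symbols were seen. Named were the core subunits, the 10 members of highest mean CPM in experiment 2, every Ndufaf gene and, per comparison, the 3 members in each direction with the smallest p; 1 of these genes is not reported here. Others are named as counts of 5 or fewer or as extremes. Alternatives were DESeq2 1.42.0, limma-voom 3.58.1, total-count scaling, no or a stricter filter, sums over transcripts, a replicate block and each library left out. Leaving out LP replicates 2 and 3 together was added after seeing the data.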

Additional observations from a re-analysis of the deposited data

Results flagged for a closer look

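Of 134 groups of 4 or 6 libraries examined, 6 held a library whose gap to the nearest other was wide for the range of its group. All 6 were for named genes, and chance gives about 1 in 20. In SP12wk, replicate 4 was highest for Ndufa11 (819 CPM, others 602 to 637 CPM) and lowest for Ndufb2 (198 CPM, others 446 to 490 CPM). In SP28wk, replicate 3 was highest for Ndufb2 (714 CPM, others 504 to 539 CPM). In SAL, replicate 3 was highest for Ndufaf2 (54.8 CPM, others 22.4 to 33.8 CPM) and replicate 2 for Ndufb4c (1813 CPM, others 1311 to 1478 CPM). In PRL, replicate 5 was highest for Ndufaf5 (23.0 CPM, others 1.67 to 9.20 CPM). No explanation was tested.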

How the results depend on the processing

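The count of complex I genes called in SP28wk against LP was 0 with sums over transcripts, 0 with DESeq2 and 0 without LP replicates 2 and 3, and 1 to 2 with each library left out (2 without LP replicate 4). In SP28wk against SP12wk it was 1 (Ndufb7) without LP replicates 2 and 3. The log2 fold change of Ndufb7 in SP28wk against LP was 2.87 to 3.82 over 20 alternatives and called in 17. In SP12wk against LP, Ndufb2 turned positive with sums over transcripts (0.0498), no filter (0.0362), limma-voom (0.0188), the replicate block (0.0121) and without LP replicates 2 and 3 (0.26), and was -0.24 to 0.27 with each library left out. Ndufa10 in PRL against SAL was -0.0063 to 0.24 with each library left out. With sums over transcripts, the accessory sum was 16708 CPM in SP12wk, 13992 in SP28wk, 22721 in SAL and 20859 in PRL, the core sum 3679 in SAL and 3564 in PRL, and the Ndufaf sum 153 in SAL. With TMM-scaled libraries, the accessory sum in SP28wk was 23064 CPM, beside 24610 in SP12wk.

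Replicate numbers did not pair the samples. Deviations of same-numbered libraries correlated between -0.141 and 0.201 in experiment 1 (12 pairs) and between -0.264 and 0.311 in experiment 2 (6 pairs), and 6 of 24 and 3 of 12 library comparisons were best with their own number. With a replicate block, 1 member was called in SP28wk against LP (Ndufb7, 3.25, adjusted p = 0.00115 in edgeR) and 0 in the other comparisons. Depth limits experiment 1 most, where 1 read is 17.4 to 63.7 CPM. The causes of these shifts were not tested.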
